A study of Sus scrofa with 33 samples.

Results

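Messenger RNA of 8 genes that regulate growth arrest and cell death was followed in the right ventricular wall of pigs before and during pulmonary banding. GADD45A, GADD45G, BTG2, IER3, PMAIP1, TNFRSF12A, TNFSF10 and FAIM were chosen from earlier results on these same arrays, in which the change from baseline to 120 min of banding stood out. That change is therefore given below as a description, with no test. The 8 genes were read by 9 probe sets, out of 6765 genes with a single symbol and 23999 probe sets in all. TNFRSF12A had 2 probe sets and each of the others had 1. Where a gene had more than 1, the set with the higher average signal across the 33 arrays stands for it.

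Each of 11 pigs gave 3 biopsies of the free wall of the right ventricle. The first was taken at baseline, and the next after 120 min of pulmonary banding, a narrowing of the pulmonary artery that loads the right ventricle until it fails. Randomisation followed. Control pigs (5, numbered I to V) had their last biopsy after a further 60 min of banding. In the shunt arm (6 pigs, numbered I to VI) the last biopsy followed a further 60 min of banding with a modified Glenn shunt, a connection that leads blood from the superior vena cava straight into the pulmonary artery, past the right heart. All pigs of both arms were banded, so no group shows biopsies repeated without banding, and time, repeated biopsy and banding cannot be told apart in any change from baseline.

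The genes act at different points between stress and cell fate. GADD45A and GADD45G encode small stress-induced proteins that bind the kinase MAP3K4, the replication clamp PCNA and the mitotic cyclin B1 complex, and so link damage to p38 and JNK signalling and to cell cycle arrest. BTG2 is an antiproliferative target of p53 that brings the CCR4-NOT complex to messenger RNA, which removes poly(A) tails. IER3 is an immediate early gene that in many cells restrains apoptosis. PMAIP1 encodes NOXA, a member of the BCL2 family with only the BH3 domain, which binds and neutralises MCL1. TNFRSF12A encodes Fn14, the receptor of the cytokine TWEAK, which rises after tissue injury. TNFSF10 encodes TRAIL, a ligand that triggers apoptosis through death receptors, and FAIM encodes an inhibitor of apoptosis triggered through Fas.

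Values are log2 probe set summaries, so that a difference of 1 is a 2-fold difference in signal. Levels are not compared between genes, because probe sets differ in how strongly they bind. Ventricular muscle markers were near the top of the scale (MYH7 14.99, MYL2 14.92 and TNNI3 14.78 as means over all arrays). The spiked-in bacterial controls separated the arrays into 3 sets that coincide with shunt pigs I to IV, shunt pigs V and VI, and control pigs I to V, with Dap levels of 3.22 to 3.57, 8.08 to 8.60 and 6.64 to 8.95. The array set and the arm therefore cannot be told apart in any comparison between the arms, while a change within a pig stays within 1 set. RNA integrity, read as the difference between GAPDH signal at the 3' end and at the 5' end, overlapped between the sets (0.50 to 1.05, 0.62 to 1.07 and 0.51 to 1.09 on the log2 scale). It also varied between the biopsies of some pigs, as in control pig III (0.60, 0.96 and 0.51), and less in others, as in shunt pig II (0.60, 0.55 and 0.50). Its part in the changes was not tested. Any change in whole tissue can come from a change in the number of cells of a type or in the RNA per cell, and these cannot be told apart here.

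At 120 min of banding 6 of the 8 genes were higher than at baseline and 2 were lower. BTG2 was 8.69-fold higher, IER3 6.30-fold, GADD45A 5.35-fold, TNFRSF12A 3.96-fold, PMAIP1 2.56-fold and GADD45G 2.35-fold, while FAIM was 2.07-fold and TNFSF10 1.97-fold lower. These are means over 11 pigs of differences on the log2 scale. All 8 passed an adjusted p of 0.05, as did 11.6% of all probe sets upwards and 17.4% downwards, but the genes were chosen on this contrast and nothing is read from that count. Each of the 6 higher genes was higher in all 11 pigs, as were 3.96% of all probe sets, and FAIM was lower in all 11, as were 5.88%. BTG2 was the only member whose 120 min levels all lay above all baseline levels, as did those of 0.571% of probe sets, and FAIM the only member whose levels all lay below, as did 0.692%. Overlap within an arm is given below as a description, and its share over all probe sets was not counted.

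**Figure D1:**
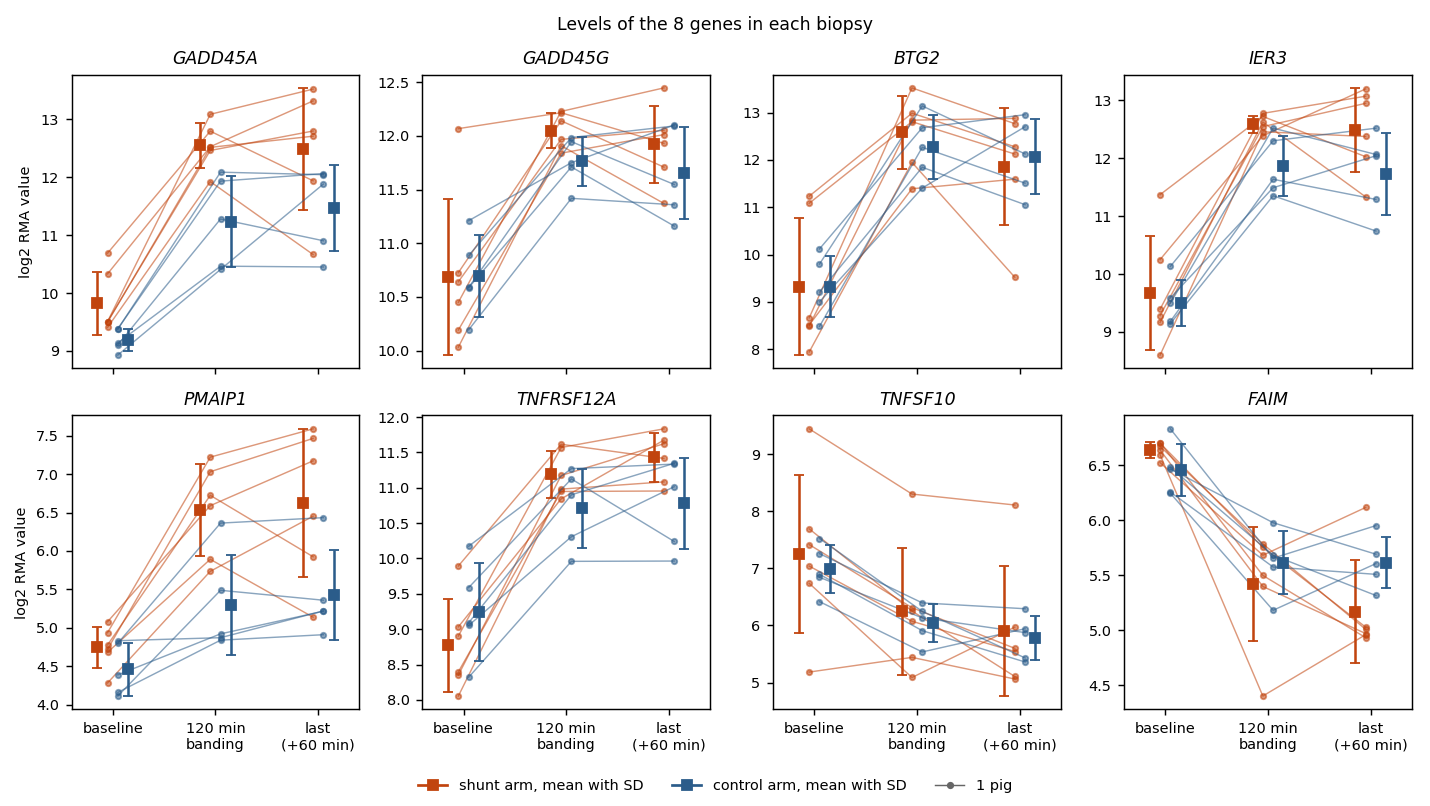
Levels of the 8 genes (log2 RMA value, vertical axis, one scale per gene) at baseline, after 120 min of banding and at the last biopsy 60 min later, with thin lines joining the biopsies of 1 pig and squares with bars giving the mean and SD of the 6 shunt and the 5 control pigs. The arm means step between baseline and 120 min in every gene, and between 120 min and the last biopsy they differ by no more than the -0.72 of BTG2 in the shunt arm.

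Among the genes of growth arrest, GADD45A read 9.38, 9.38, 8.93, 9.10 and 9.14 in control pigs I to V at baseline and 12.09, 11.93, 10.41, 11.28 and 10.46 at 120 min. In the shunt arm the lowest, median and highest levels were 9.41, 9.51 and 10.69 at baseline and 11.92, 12.52 and 13.09 at 120 min. Within each arm the 120 min levels of GADD45A lay wholly above the baseline levels, and across both arms they overlapped only in that the baseline of shunt pig IV, 10.69, lay above the 120 min levels of control pigs III and V. The mean difference was 2.42 ± 0.21 (SE, n = 11 pigs) on the log2 scale, which placed GADD45A at rank 29 of the 23999 probe sets by the size of the rise.

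GADD45G, the relative of GADD45A, read 10.59, 11.21, 10.89, 10.19 and 10.59 in the control pigs at baseline and 11.95, 11.75, 11.98, 11.42 and 11.71 at 120 min. The shunt pigs ranged from 10.03 to 12.07 around a median of 10.55 at baseline, and from 11.84 to 12.23 around 12.05 at 120 min. The controls did not overlap between the biopsies, and the shunt pigs did, through pig IV, whose baseline of 12.07 was already at the level the others reached later. GADD45G gained 1.23 ± 0.13 (SE, n = 11), rank 173. Without shunt pig IV the gain was 1.34 ± 0.10.

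BTG2 had the largest rise of the 8. Control pigs I to V read 9.80, 10.12, 9.0, 8.48 and 9.21 at baseline and 13.14, 12.68, 11.41, 12.27 and 11.85 at 120 min. The shunt pigs had a lowest, median and highest level of 7.94, 8.59 and 11.24 at baseline and 11.39, 12.83 and 13.52 at 120 min. Shunt pigs II and IV, at 11.24 and 11.09 at baseline, stood above all other pigs and gained least, 1.75 and 1.72, whereas shunt pig I gained 4.86. The mean difference was 3.12 ± 0.29 (SE, n = 11), rank 13.

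IER3 read 9.50, 10.13, 9.59, 9.18 and 9.15 in the controls at baseline, and 12.52, 12.30, 11.49, 11.64 and 11.35 at 120 min. Its lowest, median and highest levels in the shunt arm were 8.60, 9.34 and 11.37 at baseline and 12.39, 12.59 and 12.78 at 120 min. The shunt pigs spread widely before banding (SD 0.99) and closely after it (SD 0.15), and neither arm overlapped between the biopsies. IER3 gained 2.66 ± 0.21 (SE, n = 11), rank 19.

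PMAIP1, the gene of the death-promoting BH3 protein, had a low signal, with a mean over all arrays at the 40.4th percentile of probe sets. The control pigs read 4.16, 4.80, 4.83, 4.11 and 4.39 at baseline and 4.84, 6.36, 4.87, 5.49 and 4.92 at 120 min. In the shunt pigs the lowest, median and highest levels went from 4.28, 4.75 and 5.08 to 5.74, 6.66 and 7.22. Control pig III hardly moved (0.04) and control pig V gained 0.53, while all 6 shunt pigs gained between 1.21 and 2.31. The mean gain was 1.36 ± 0.16 (SE, n = 11), rank 138.

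TNFRSF12A, the TWEAK receptor, read 9.09, 10.17, 9.05, 8.32 and 9.59 in control pigs I to V at baseline and 10.90, 11.27, 10.31, 9.96 and 11.12 at 120 min. The shunt pigs ranged from 8.05 to 9.89 (median 8.65) at baseline and from 10.84 to 11.62 (median 11.08) at 120 min. The shunt pigs did not overlap between the biopsies, and the controls did, because control pig II started at 10.17. The gain was 1.98 ± 0.14 (SE, n = 11), rank 54, and the other probe set of the gene gave 1.70 ± 0.12, rank 80.

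TNFSF10, the gene of the death ligand TRAIL, went the other way. The control pigs read 6.84, 7.52, 7.26, 6.90 and 6.42 at baseline and 6.13, 6.25, 6.40, 5.91 and 5.54 at 120 min, without overlap. The shunt pigs spread far more, from 5.18 to 9.44 (median 7.23) at baseline and from 5.09 to 8.30 (median 6.16) at 120 min. Shunt pig I was highest of all pigs at each biopsy, with 9.44, 8.30 and 8.11, and shunt pig IV started lowest, at 5.18, and was the only pig that did not read lower at 120 min (5.44). The mean difference was -0.98 ± 0.17 (SE, n = 11), the 49th lowest of all probe sets, and -1.10 ± 0.15 without shunt pig IV.

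FAIM, the inhibitor of Fas-induced apoptosis, was the most uniform gene at baseline. Control pigs I to V read 6.25, 6.48, 6.83, 6.47 and 6.26 at baseline and 5.18, 5.68, 5.65, 5.98 and 5.58 at 120 min. The shunt pigs lay between 6.53 and 6.71 (median 6.66) at baseline and between 4.40 and 5.79 (median 5.59) at 120 min. No 120 min level reached any baseline level, and shunt pig IV, at 4.40, lay well below the rest. The mean difference was -1.05 ± 0.12 (SE, n = 11), the 35th lowest, and -0.93 ± 0.11 without shunt pig IV.

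**Figure D2:**
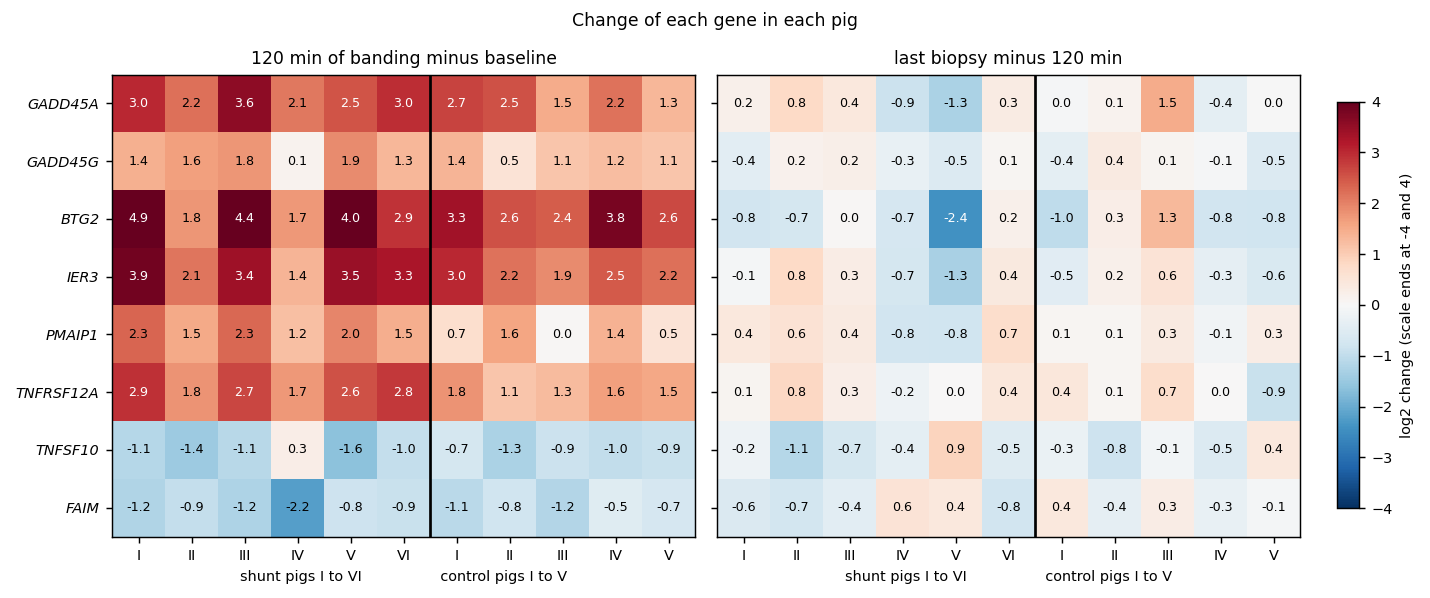
Change of each gene (rows) in each pig (columns, shunt I to VI and control I to V) as a log2 difference, from baseline to 120 min on the left and from 120 min to the last biopsy on the right, with red for higher, blue for lower and the value in each cell. The left panel is nearly uniform in sign across pigs, and in the right panel the 6 upper genes are all higher in shunt pigs III and VI and control pigs II and III and all lower in shunt pig IV.

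Shunt pig IV stood at or near the end of the range of baseline levels for several of the 8 genes. Its baseline level was the highest of the 11 pigs for GADD45A, GADD45G and IER3, rank 2 for BTG2 and TNFRSF12A, and the lowest for TNFSF10, but rank 7 for PMAIP1 and rank 6 for FAIM. Shunt pig II also stood high, at rank 1 for BTG2 and PMAIP1 and rank 2 for GADD45A and IER3, but rank 10 for GADD45G. The gain of shunt pig IV at 120 min was the smallest of the 6 shunt pigs in each of the 6 genes that were higher (GADD45A 2.11, GADD45G 0.15, BTG2 1.72, IER3 1.35, PMAIP1 1.21 and TNFRSF12A 1.72). A high baseline enters the gain with a minus sign, so for genes that started high these gains partly restate the baseline levels. Its FAIM change, -2.20, was the largest fall of the 11 pigs. At the other TNFRSF12A probe set shunt pig II gained less, 1.67 against 1.85. Without shunt pig IV the mean changes at 120 min ranged from -1.10 for TNFSF10 to 3.26 for BTG2. All 8 kept their direction, which had to be so, since every other pig moved in the direction of the mean in each gene.

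In the hour after 120 min none of the 8 genes changed by the test in either arm. This comparison shares the 120 min arrays with the contrast on which the genes were chosen. In the control arm, with banding continued, the differences between the last and the 120 min biopsy ran from -0.26 ± 0.25 (SE) for TNFSF10 to 0.23 ± 0.31 for GADD45A, each with an adjusted p of 1. In the shunt arm they ran from -0.72 ± 0.39 for BTG2 (adjusted p = 0.619) to 0.24 ± 0.19 for TNFRSF12A (adjusted p = 0.756). No probe set of the 23999 was called in either arm (0%), and at an unadjusted p of 0.05 none of the 8 genes passed, against 737 probe sets (3.07%) in the control arm and 2146 (8.94%) in the shunt arm. The 95% intervals still allow sizeable shifts, for example from -1.53 to 0.09 for BTG2 in the shunt arm and from -0.41 to 0.88 for GADD45A in the control arm.

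The pigs did not move alike in that hour. All 6 of the genes that had been higher at 120 min were higher again at the last biopsy in shunt pigs III and VI and in control pigs II and III, and 5 of the 6 were in shunt pig II. All 6 were lower in shunt pig IV, and 5 of the 6 were lower in shunt pig V and in control pigs IV and V. These counts depend on the probe set of TNFRSF12A. Its other probe set was lower in shunt pigs I (-0.04) and V (-0.21) and control pigs II (-0.06) and IV (-0.18), where the first was higher. BTG2 dropped from 11.95 to 9.52 in shunt pig V, and went from 11.41 to 12.70 in control pig III. Without shunt pig V the BTG2 difference in the shunt arm was -0.38 ± 0.41. GADD45A went from 10.41 to 11.88 in control pig III, the control pig with the lowest level at 120 min.

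At the last biopsy the levels in the control and shunt arms were 11.47 ± 0.74 (SD, n = 5) and 12.49 ± 1.05 (SD, n = 6) for GADD45A, and 11.65 ± 0.43 and 11.92 ± 0.36 for GADD45G. BTG2 stood at 12.07 ± 0.80 and 11.86 ± 1.24, and IER3 at 11.73 ± 0.71 and 12.49 ± 0.72. The 2 arms overlapped in each of these 4 genes, and also in PMAIP1, TNFRSF12A, TNFSF10 and FAIM. PMAIP1 read 5.43 ± 0.59 in the control and 6.62 ± 0.97 in the shunt arm, and TNFRSF12A 10.78 ± 0.64 and 11.43 ± 0.35. TNFSF10 was at 5.78 ± 0.39 and 5.90 ± 1.13, and FAIM at 5.61 ± 0.23 and 5.17 ± 0.47. FAIM lay between 4.93 and 5.03 in 5 of the 6 shunt pigs, below every control pig (5.32 to 5.95), but shunt pig V, at 6.12, was higher than all controls.

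From baseline to the end of the experiment, the differences in the control and shunt arms were 2.28 ± 0.31 (SE, n = 5) and 2.67 ± 0.29 (SE, n = 6) for GADD45A, 0.96 ± 0.20 and 1.23 ± 0.18 for GADD45G, and 2.75 ± 0.43 and 2.54 ± 0.39 for BTG2. For IER3 they were 2.22 ± 0.32 and 2.82 ± 0.29, and for TNFSF10 -1.21 ± 0.25 and -1.35 ± 0.23. These share the baseline arrays with the choosing contrast and are descriptions. The same 6 genes were above and the same 2 below baseline past the threshold in each arm, where 3.5% of all probe sets were higher and 5.29% lower in the control arm, and 13.3% higher and 19.2% lower in the shunt arm.

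The question the randomisation poses is whether the hour with the shunt differed from the hour of banding alone. For the change from 120 min to the last biopsy, no gene differed between the arms by the test, and no probe set did (0%). The difference, shunt minus control, ran from -0.52 ± 0.58 (SE) for BTG2 to 0.17 ± 0.28 for TNFRSF12A, each with an adjusted p of 1. At an unadjusted p of 0.05 none of the 8 passed, nor did the other TNFRSF12A probe set, against 3.07% of all probe sets. The 95% intervals were -1.17 to 0.58 for GADD45A, -1.72 to 0.68 for BTG2, -0.72 to 0.64 for PMAIP1, and -0.76 to 0.25 for FAIM. Each interval held 0, and the data do not exclude a difference anywhere within it.

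**Figure D3:**
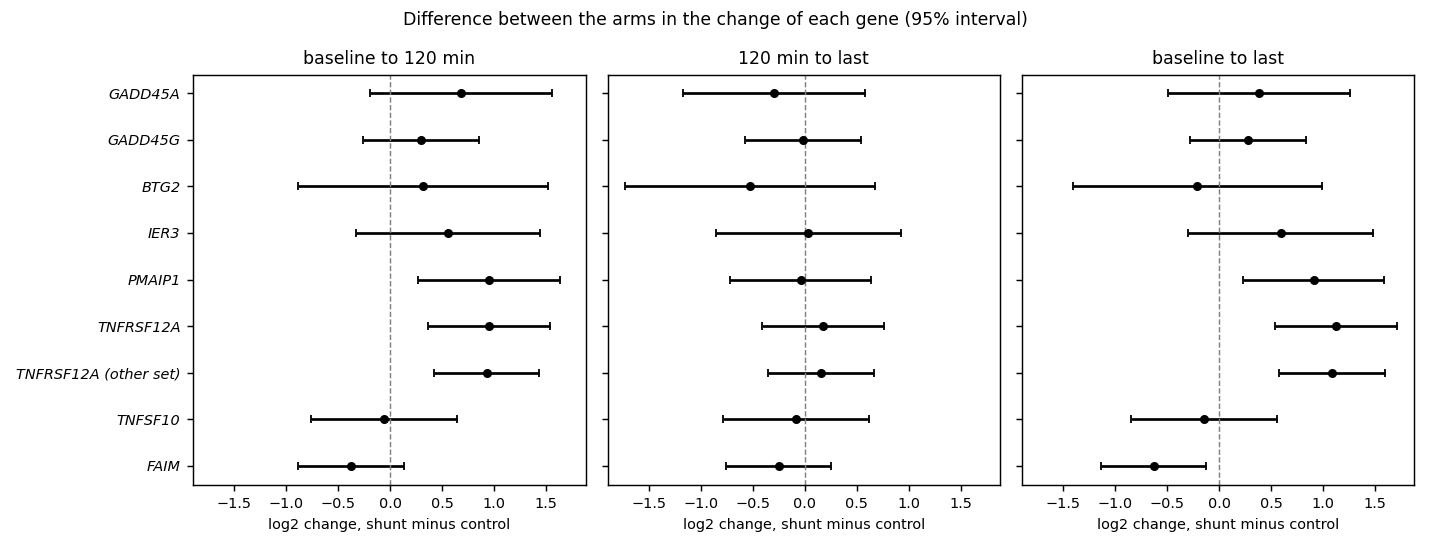
Difference between the arms in the change of each gene (shunt minus control, log2 scale, horizontal axis), from baseline to 120 min, from 120 min to the last biopsy and from baseline to the last biopsy, with points for estimates from limma and bars for 95% intervals. The middle panel, the only one in which the arms were treated differently throughout, has every interval across 0, and TNFRSF12A and PMAIP1 lie to the right in the other 2 panels.

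In the first 120 min both arms had banding alone, and TNFRSF12A and PMAIP1 had larger gains in the shunt arm, though neither difference passed the test. The gain of TNFRSF12A was 2.42 ± 0.52 (SD, n = 6) in the shunt arm and 1.47 ± 0.29 (SD, n = 5) in the control arm, a difference of 0.95 ± 0.28 (SE, adjusted p = 0.474). Its other probe set gave 0.93 ± 0.25 (adjusted p = 0.401). Mean levels of TNFRSF12A in the shunt and control arms were 8.77 and 9.24 at baseline, and 11.19 and 10.71 at 120 min. The shunt arm thus started lower and stood higher at 120 min. PMAIP1 gained 1.79 ± 0.46 and 0.84 ± 0.63, a difference of 0.95 ± 0.33 (adjusted p = 0.562). Its mean levels in the shunt and control arms were 4.74 and 4.46 at baseline, and 6.53 and 5.30 at 120 min. No probe set on the array passed (0%). At an unadjusted p of 0.05 these 2 of the 8 genes passed, against 6.9% of all probe sets.

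The same 2 genes and FAIM had the widest gaps between the arms over the whole course. TNFRSF12A gained 1.54 ± 0.21 (SE) from baseline to the last biopsy in the control arm and 2.66 ± 0.19 in the shunt arm, a difference of 1.12 ± 0.28 with an adjusted p of 0.142, and 1.08 ± 0.25 with an adjusted p of 0.110 at the other probe set. PMAIP1 gained 0.97 ± 0.24 and 1.88 ± 0.22, a difference of 0.91 ± 0.33 (adjusted p = 0.257). FAIM changed by -0.84 ± 0.18 and -1.47 ± 0.17, a difference of -0.63 ± 0.24 (adjusted p = 0.292). No member passed, and 1 probe set of the 23999 did (0.00417%), while at an unadjusted p of 0.05 these 3 of the 8 genes passed against 12.2% of all probe sets. The call depended on the fit. Without shunt pig IV, TNFRSF12A differed by 1.35 (adjusted p = 0.0303, and 0.0300 for the other probe set) and PMAIP1 by 1.19 (adjusted p = 0.0442). With all pigs kept and arrays weighted by their quality, TNFRSF12A differed by 1.27 (adjusted p = 0.0394). Across the fits that left out 1 pig or changed a setting, the adjusted p of this difference ran from 0.0303 to 0.619 for TNFRSF12A and from 0.0442 to 0.787 for PMAIP1.

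Neutrophil and monocyte markers also gained more on average in the shunt arm. The mean of the 7 measured of 10 neutrophil and monocyte markers lay between 4.84 and 5.25 in the shunt pigs and 4.95 and 5.24 in the controls at baseline, between 5.18 and 6.52 and between 5.02 and 5.34 at 120 min, and between 5.34 and 6.99 and between 5.24 and 5.63 at the last biopsy. It gained 0.75 ± 0.46 (SD) in the shunt arm, in 6 of 6 pigs, and 0.06 ± 0.15 in the control arm, in 3 of 5 pigs, by 120 min. Over the whole course it gained 1.07 ± 0.58 and 0.34 ± 0.20. The list mean leans on S100A9, whose change by 120 min differed between the arms by 2.28 ± 0.58 (SE, adjusted p = 0.381 by limma). The array reports a signal for every probe set, so no marker reads 0. Over the whole course macrophage markers gained 0.30 ± 0.17 in shunt pigs and 0.26 ± 0.26 in controls, and lymphocyte markers changed by 0.01 ± 0.14 and -0.19 ± 0.10 in the same order. The part of these cells in the arm differences of TNFRSF12A and PMAIP1 was not tested.

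Over all cell types the lists were counted at 120 min in the same way. Of the measured markers, higher and lower calls were 2 and 0 of 5 for macrophages, 0 and 2 of 8 for lymphocytes, 1 and 2 of 10 for endothelium, 1 and 1 of 6 for fibroblasts, and 2 and 0 of 7 for smooth muscle and pericytes. They were 1 and 0 of 3 for platelets, 0 of 2 for red cells, 0 of 3 for atrial muscle, 0 and 1 of 12 for ventricular muscle, and 4 and 0 of 7 for neutrophils and monocytes. Over all probe sets 11.6% were called higher and 17.4% lower at 120 min, and the counts are descriptions. The smooth muscle list also gained more in the shunt arm, 0.38 ± 0.29 (SD) against 0.14 ± 0.27 by 120 min and 0.61 ± 0.32 against 0.20 ± 0.13 over the whole course. The red cell list, ALAS2 and HBB, also had unlike changes in the arms. By 120 min, before any shunt, its change was -0.06 ± 0.27 in the shunt arm against -0.71 ± 0.74 in controls. Over the whole course it was 0.29 ± 0.38 in the shunt arm against -0.63 ± 0.49 in controls. ALAS2, an enzyme of heme synthesis, differed between the arms over the whole course by 1.72 ± 0.49 (SE), with an adjusted p of 0.167 by limma, and HBB, the beta chain of haemoglobin, by 0.13 ± 0.20. The part of the smooth muscle and red cell markers in the arm differences of TNFRSF12A and PMAIP1 was not tested.

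Before banding no gene of the 8 differed between the arms by the test. GADD45A was higher in the shunt arm, 9.82 ± 0.55 (SD, n = 6) against 9.19 ± 0.19 (SD, n = 5), a difference of 0.64 ± 0.22 (SE) with an adjusted p of 0.296. The lowest shunt pig, at 9.41, lay just above the highest control pig, at 9.38, and the share of all probe sets separated in this way was not counted. The other 7 genes differed by between -0.47 ± 0.34 for TNFRSF12A and 0.29 ± 0.16 for PMAIP1. Of all probe sets 5 passed (0.0208%), no member among them, and at an unadjusted p of 0.05 GADD45A alone of the 8 passed, against 11.8% of all probe sets.

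The partners and relatives of these genes were taken from 7 lists with 127 genes, of which 73 were measured. At 120 min 21 of them rose and 19 fell (28.8% and 26%), against 13.1% and 20.8% of all 6765 genes, whose median difference was -0.02 on the log2 scale. The lists were drawn up with earlier results of these arrays known, so the counts are descriptions.

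Of 8 measured GADD45 relatives and partners 1 rose and 3 fell, with a median of -0.08. The relative that rose was GADD45B, by 1.27 ± 0.18 (SE). The kinase MAP3K4, which GADD45 proteins activate, fell by 0.26 ± 0.07, the p38 kinase MAPK14 fell by 0.41 ± 0.06, and CCNB1, the cyclin of mitotic entry, fell by 0.41 ± 0.11. Among 7 genes of the BTG and TOB family and the CCR4-NOT complex, 2 rose and 2 fell (median -0.02). BTG1, the closest relative of BTG2, rose by 0.33 ± 0.08 and the deadenylase CNOT7 by 0.23 ± 0.08. The scaffold CNOT1 fell by 0.22 ± 0.04 and CNOT2 by 0.20 ± 0.05.

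The p53 and growth arrest list split both ways, with 4 of 18 measured genes higher and 8 lower (median -0.13). PLK2, a stress-induced kinase, rose by 1.79 ± 0.25, the cyclin-dependent kinase inhibitor CDKN1A (p21) by 0.89 ± 0.12, and PLK3 by 0.51 ± 0.08. The inhibitor CDKN1B (p27) fell by 0.74 ± 0.12. In the BCL2 family 2 of 8 measured genes rose and none fell (median 0.11). MCL1, the survival protein that the PMAIP1 product binds, rose by 0.39 ± 0.08 and the effector BAK1 by 0.19 ± 0.07, while BCL2L11 differed by 0.15 ± 0.07 and BNIP3L by -0.14 ± 0.08 without passing.

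On the receptor side 6 of 14 measured TNF-type ligands, receptors and adaptors rose and none fell (median 0.15). The TNF receptors TNFRSF1B and TNFRSF1A rose by 0.95 ± 0.15 and 0.74 ± 0.07, the adaptor TRAF6 by 0.61 ± 0.10 and CFLAR, an inhibitor of caspase 8 activation, by 0.33 ± 0.08. Of the other ligands of this type, TNFSF13 rose by 0.19 ± 0.07, TNF differed by 0.09 ± 0.07 and FASLG by -0.05 ± 0.05. FAS, the receptor whose signal the FAIM product blocks, differed by 0.16 ± 0.08 and did not pass. Of 11 caspases, apoptosome members and inhibitors 6 fell and none rose (median -0.25), among them CASP2 (-0.57 ± 0.07), DFFA (-0.36 ± 0.07), CASP6 (-0.34 ± 0.06) and the mitochondrial flavoprotein gene AIFM1 (-0.23 ± 0.06).

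**Figure D4:**
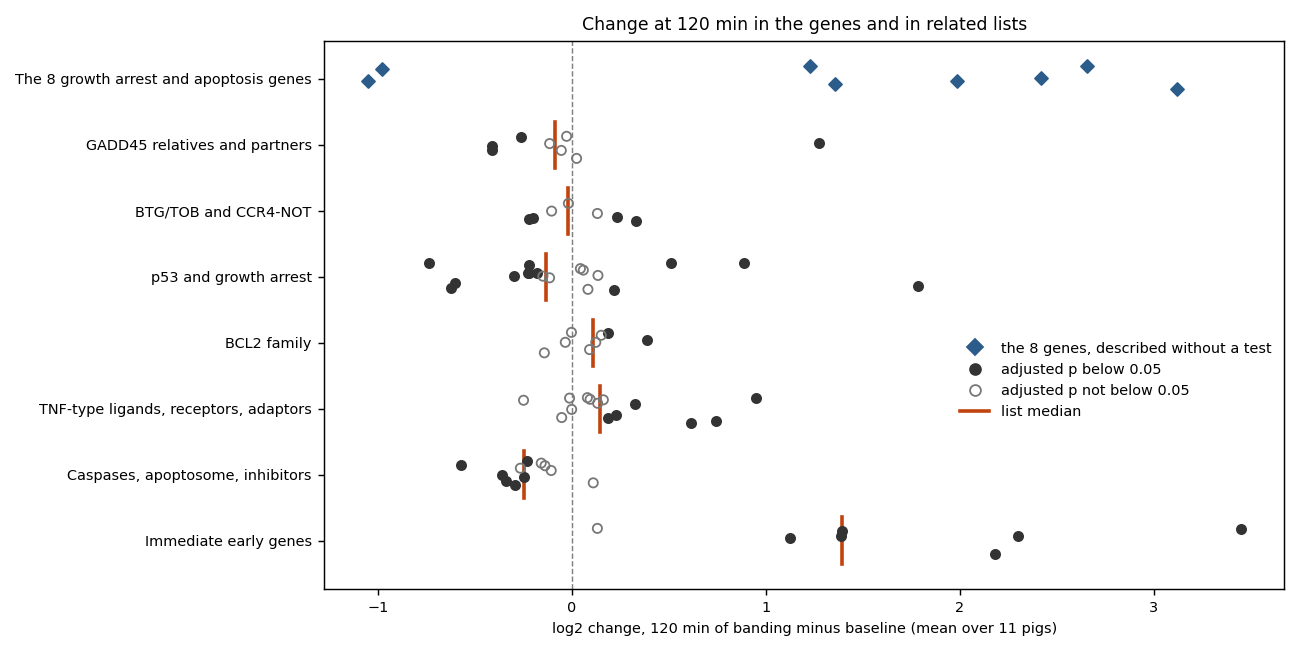
Difference between 120 min of banding and baseline (log2 scale, mean over 11 pigs, horizontal axis) for the 8 genes, drawn as blue diamonds without a test, and for the measured genes of 7 related lists, drawn filled where the adjusted p was below 0.05 and open where it was not, with an orange bar at each list median. The list medians lie between -0.25 and 0.15 except that of the immediate early genes, at 1.39.

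Immediate early genes, the class to which IER3 belongs, had the highest median of the 7 lists, 1.39, and 6 of 7 measured rose and none fell. ATF3, a stress-induced transcription factor, rose by 3.45 ± 0.41, MYC by 2.30 ± 0.21, IER5 by 2.18 ± 0.28 and IER2 by 1.13 ± 0.23. JUN was the exception, with a difference of 0.13 ± 0.16. In the last hour none of the 73 genes differed between the arms by the test. Among the genes with the smallest p of their lists were TRAF6 (-0.68 ± 0.20, shunt minus control), CCNB1 (-0.50 ± 0.22), FADD (0.30 ± 0.14) and SESN1 (-0.43 ± 0.20), each with an adjusted p of 1.

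The 8 genes were compared by their correlation within pigs, which cannot show whether they followed one course beyond the step from baseline. After each pig's mean was subtracted, Pearson's r over the 33 arrays lay between 0.878 and 0.978 among the 6 higher genes, was 0.798 between TNFSF10 and FAIM, and lay between -0.896 and -0.792 across the 2 groups. The arrays share the step from baseline on which the genes were chosen, so large r of either sign was built in, and no test applies. In the hour after 120 min all 6 higher genes moved the same way in shunt pigs III, IV and VI and control pigs II and III. They parted in shunt pig I, with 3 higher and 3 lower, and in control pig I, with 2 higher and 4 lower. In each of the other pigs 1 of the 6 went against the rest. Of the 6757 other genes, GADD45A tracked most closely with MYC (r = 0.98), IFRD1 (0.98) and HSPA13 (0.97), and BTG2 with CYR61, a matrix-associated protein gene, MYC and IFRD1 (each 0.97). IER3 ran with XIRP1, IFRD1 and CYR61 (each 0.99), and GADD45G with CYR61 (0.96), IER5 and XIRP1 (each 0.95). PMAIP1 was closest to the interferon receptor gene IFNAR2, the leukocyte gene PLEK and the transcription factor gene CEBPG (each 0.96). TNFRSF12A was closest to CTSC, which encodes a lysosomal protease (0.98), to ANKRD1, a stretch-responsive cardiac gene (0.98), and to the small heat shock protein gene CRYAB (0.97). Among falling transcripts, FAIM lay nearest to RWDD3 (0.97), METTL14, a subunit of the RNA methyltransferase complex, and CEP85 (each 0.96), and TNFSF10 to IMPACT (0.91), MEN1 and MAP10 (each 0.90).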

How the data were processed

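Total RNA of each biopsy (TRIzol, then RNeasy) was labelled as biotinylated cRNA and read on 1 Affymetrix porcine array. Values are on the log2 scale, 1 per probe set, as deposited by the authors after RMA, per the submitters' processing notes. RMA corrects background, quantile normalises and summarises probes, so values are relative to the arrays normalised together, and low signals are compressed. The RMA software, and whether all arrays went through it at once, is not given in the sources used here. Array medians lay between 6.10 and 6.17.

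Of 24123 probe sets, 124 controls were left out. Symbols came from the platform annotation (10069 probe sets with a single symbol). The values were fitted in R 4.3.3 with limma 3.58.1 (lmFit, eBayes) on all 33 arrays, with a fixed effect for each pig and coefficients for the 120 min and last biopsies within each arm (18 residual degrees of freedom). The baseline arms were compared on the baseline arrays alone. P-values were adjusted by Benjamini and Hochberg over 23999 probe sets with a threshold of 0.05, and the code was tested on simulated data. The paired design comes from the labels, which give 3 biopsies per pig: deviations from group means correlated with a median r of 0.395 within and -0.05 between pigs.

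The genes and lists were chosen with earlier results of these data known. Genes named are the 8 members, for each the 3 other genes with the highest r, up to 4 genes per pathway list with the smallest p at 120 min and up to 2 with the smallest p for the later arm difference, and up to 3 markers per cell type with the highest mean. TNFSF13, TNF, FASLG, FAS and JUN were named after their values were seen. Alternatives covered scaling, the pig block, the variance model, a filter on low values, array weights, the probe set of a gene, each pig left out, and array sets taken alone.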

Additional observations from a re-analysis of the deposited data

Results flagged for a closer look

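Dixon's criterion, which flags about 1 in 20 by chance, was applied to 80 combinations of gene, arm and biopsy or change. They are not independent, because each change is made from 2 of the levels and the genes correlate. No excess over chance is therefore read from the number flagged. In 9 of the 80 combinations, 1 pig stood far from the others of its arm. Shunt pig IV stood apart in 5 of them: GADD45G at baseline (12.07, the others 10.03 to 10.73), the GADD45G change at 120 min (0.15, the others 1.32 to 1.88), the TNFSF10 change at 120 min (0.26, the others -1.65 to -0.97), the FAIM level at 120 min (4.40, the others 5.40 to 5.79) and the FAIM change at 120 min (-2.20, the others -1.24 to -0.84). Shunt pig V stood apart in the BTG2 change after 120 min (-2.43, the others -0.76 to 0.20) and in the FAIM level at the last biopsy (6.12, the others 4.93 to 5.03). Shunt pig I stood apart in the TNFSF10 level at the last biopsy (8.11, the others 5.06 to 5.97). In the control arm, pig III stood apart in the GADD45A change after 120 min (1.47, the others -0.38 to 0.13).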

How the results depend on the processing

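Of 178 counts of members called under the alternatives, 174 stayed within 1.5 times the reported count. Of 1593 values of single genes 1519 counted as unchanged. For comparisons between the arms and after 120 min, this meant the same direction and the same side of the threshold. For changes from baseline it meant a shift smaller than the SD of the pig changes, whichever side of the threshold the value fell. With pig as a random replicate block in place of a fixed one, 8 members were called at 120 min, and with no replicate block 7 were. The paired design changed no call in any comparison between the arms or after 120 min. Over the whole course 2 members differed between the arms without shunt pig IV (0 to 2 with 1 pig left out) and 1 with array weights. With the arrays of shunt pigs V and VI alone, 5 members were called at 120 min and 5 over the whole course, where fewer samples entered the fit.

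The sign changed in 67 of the 1593 values, none of them called, and the cause was not tested. For the change after 120 min, these were TNFRSF12A at its other probe set in the control arm (-0.013 after renewed quantile normalisation, -0.060 with array weights), GADD45A in the shunt arm (0.076 with array weights, 0.14 in shunt pigs I to IV), IER3 in the shunt arm (0.082 in shunt pigs I to IV), and PMAIP1 (-0.041) and TNFSF10 (0.18) in shunt pigs V and VI. The arm difference after 120 min became 0.0091 for GADD45G after renewed normalisation, and 0.048 for GADD45A and 0.17 for PMAIP1 with array weights. The baseline difference of BTG2 became 0.0021 with each array centred on its median.

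With 1 pig left out, the control arm's change after 120 min ranged from -0.57 to 0.0058 for BTG2, -0.11 to 0.092 for FAIM, -0.075 to 0.39 for GADD45A, -0.093 to 0.31 for TNFRSF12A and -0.14 to 0.19 for its other probe set. In the shunt arm it ranged from -0.23 to 0.18 for GADD45A, -0.27 to 0.15 for IER3 and -0.034 to 0.27 for PMAIP1. The arm difference in that change ranged from -0.46 to 0.015 for GADD45A, -0.13 to 0.096 for GADD45G, -0.15 to 0.27 for IER3, -0.16 to 0.14 for PMAIP1, -0.063 to 0.33 for TNFRSF12A, -0.029 to 0.30 for its other probe set and -0.33 to 0.085 for TNFSF10. At 120 min it ranged from -0.0035 to 0.62 for BTG2 and -0.32 to 0.064 for TNFSF10, and over the whole course from -0.58 to 0.091 for BTG2 and -0.39 to 0.0997 for TNFSF10. At baseline it ranged from -0.38 to 0.28 for BTG2, -0.28 to 0.12 for GADD45G, -0.17 to 0.38 for IER3 and -0.17 to 0.68 for TNFSF10. The number of pigs limits the precision of every comparison between the arms, and PMAIP1, TNFSF10 and FAIM had mean signals below the 54th percentile of probe sets.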
